A study of Mus musculus with 7 samples.

Results

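The genes described are nuclear genes of mitochondrial energy production: subunits and assembly factors of the respiratory chain, and proteins of the mitochondrial ribosome. They were chosen by name, as probe sets with exactly 1 gene symbol that starts with Nduf, Sdh (Sdha to Sdhd), Uqcr, Cox and a digit, Atp5, Mrpl or Mrps in the platform annotation. This gave 46 of the 5017 genes measured, with 230 probe sets of 65535. Of these, 26 belong to the respiratory chain and 20 to the mitochondrial ribosome. The deposited values stop at 65535 rows, and by their numbers all 230 probe sets lie on chromosome 1, 10, 11, 12 or 13. The 46 are therefore the genes of these names within the deposited rows. Other such genes of the genome may be missing. The name rule uses no value of the comparison, but this group of genes was chosen with earlier results of these data known.

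The samples were retinal pigment epithelium (RPE), a sheet of pigmented cells that supports the photoreceptors, dissected from mice at postnatal day 5 and hybridised to 7 Affymetrix arrays. In the 3 Dicer1-deficient arrays the genotype was Dicer1loxP/loxP;Dct-Cre, in which Cre recombinase is driven by the promoter of Dct, an enzyme gene of pigment cells, and removes floxed Dicer1, the gene of the enzyme that makes mature microRNAs. The other 4 arrays are named control RPE. The labels give their parents' cross (Dicer1 flox/+ with Dct-cre, to Dicer1 flox/flox) and not their own genotype. The comparison asks which RNAs of this tissue change when Dicer1 is deleted. Values are log2 signals, and the signal of a gene is the mean of its probe sets. Whether each array stands for its own animal is not in the labels. A p-value here therefore measures only how far these samples spread, which may be technical.

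The respiratory chain passes electrons from NADH and succinate through complexes I to IV to oxygen, and complex V (ATP synthase) uses the resulting proton gradient to make ATP. A few core subunits are made inside the mitochondrion by its own ribosome, while all others, and every protein of that ribosome, come from nuclear genes like those measured here. The RPE is known as a tissue of high oxidative metabolism that spares glucose for the photoreceptors. Genes of the mitochondrial genome were not analysed here.

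Control 4 stood apart from the other arrays and touches many values below. Its median over all probe sets was 6.05, against 6.22 to 6.26 in the other 6 arrays, and its correlation with them across probe sets was 0.942 to 0.951. On the mean of its 28 probe sets, Dicer1 itself stood at 8.28 ± 0.12 (SD, n = 4) in controls against 8.23 ± 0.02 (SD, n = 3) after deletion (log2 fold change -0.04, limma adjusted p = 0.921). Probe sets outside the floxed part, which the labels do not define, check nothing about the genotype. RPE genes were present at high signal, with control means of 11.31 for Pmel, a protein of pigment granules, and 10.29 for Rdh5, an enzyme of the visual cycle. Of 12 measured RPE and pigment genes, limma called 4 lower and 1 higher (41.7%, against 5.86% of all genes). The list mean was 8.96 to 9.17 in control and 8.59 to 8.80 in Dicer1-deficient arrays. RNA of other cells was present too. The mean over 12 fibroblast and scleral genes was 10.03 to 10.20 in control and 9.49 to 9.83 in Dicer1-deficient arrays. Of these 12 genes, 5 were called lower and none higher (41.7%). The mean over 8 retinal neuron and photoreceptor genes was 4.91 to 5.42 and 5.16 to 5.91, over 16 muscle genes 5.81 to 6.02 and 5.57 to 6.29, and over 3 macrophage genes 7.31 to 7.65 and 7.25 to 7.41. Of the 8 retinal genes, Tfap2a was called lower (-0.78, limma adjusted p = 0.0109) and Tfap2b higher (0.81, adjusted p = 0.0437), which is 25%. None of the muscle or macrophage genes was called. With the mean of the retinal markers as a covariate, limma called 74 genes in place of 294 and 0 of the 46 in place of 1. That covariate differed by 0.41 between the groups, holds genes called in this same comparison and uses up a residual degree of freedom. Fewer calls can follow from this alone, so the part of retinal RNA cannot be read from this fit. The part of the other lists in the results below was not tested. In bulk tissue, fewer cells of a type and less RNA per cell cannot be told apart.

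Few genes of the respiratory chain and the mitochondrial ribosome passed the test, as over all genes, and large differences were rare among them. Of the 46 genes, 1 passed the test (limma, Benjamini-Hochberg over all 5017 genes, threshold 0.05), the complex III subunit gene Uqcrq, which was lower in Dicer1-deficient RPE. That is 2.17%, where 5.86% of all genes passed, 3.03% higher and 2.83% lower. With 1 member passing, these shares cannot be told apart. On gene means, limma gave an unadjusted p under 0.05 for 7 of the 46 and for 846 of all 5017. The median log2 fold change of the 46 was 0.07, with 28 above 0 and 18 below, against -0.01 over all genes. It was -0.01 without control 4, with 21 above 0 and 25 below, so the small upward balance rested on that array. Fold changes ran from -0.51 to 0.29 on the log2 scale, and 95.7% of members lay within 0.3 of 0, against 87.5% of all genes. The median size of a difference, whatever its sign, was no smaller than elsewhere, at 0.11 for members and 0.10 for all genes.

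The 95% intervals were narrow for most of these genes, as for most genes measured, though they reflect only the spread of these arrays. The standard error of a member's fold change was 0.10 in the median and 0.22 at most. The 95% interval lay inside 0.5 on either side of 0 for 38 of the 46 genes (82.6%, against 78.8% of all genes). It lay inside 1 for all 46 (100%, against 97.5% of all genes). The widest downward limit was -0.87 for Uqcrb and the highest upward limit 0.59 for Uqcr. Without control 4, limma called 4 of the 46 (8.7%, 2 higher and 2 lower), where 17% of all genes passed, 6.74% higher and 10.3% lower. The 4 were Uqcrq and Ndufa4l2, which were lower, and Ndufs7 and Cox7c, which were higher. The only probe set of Cox7c lies among those of another chromosome than its gene's. Tested singly, 0 of the 230 member probe sets passed limma over all probe sets with named genes, where 1.06% of these did (2.3% without control 4). An unadjusted p under 0.05 was reached by 14 of the 230 (6.09%), against 11.7% of all.

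**Figure D1:**
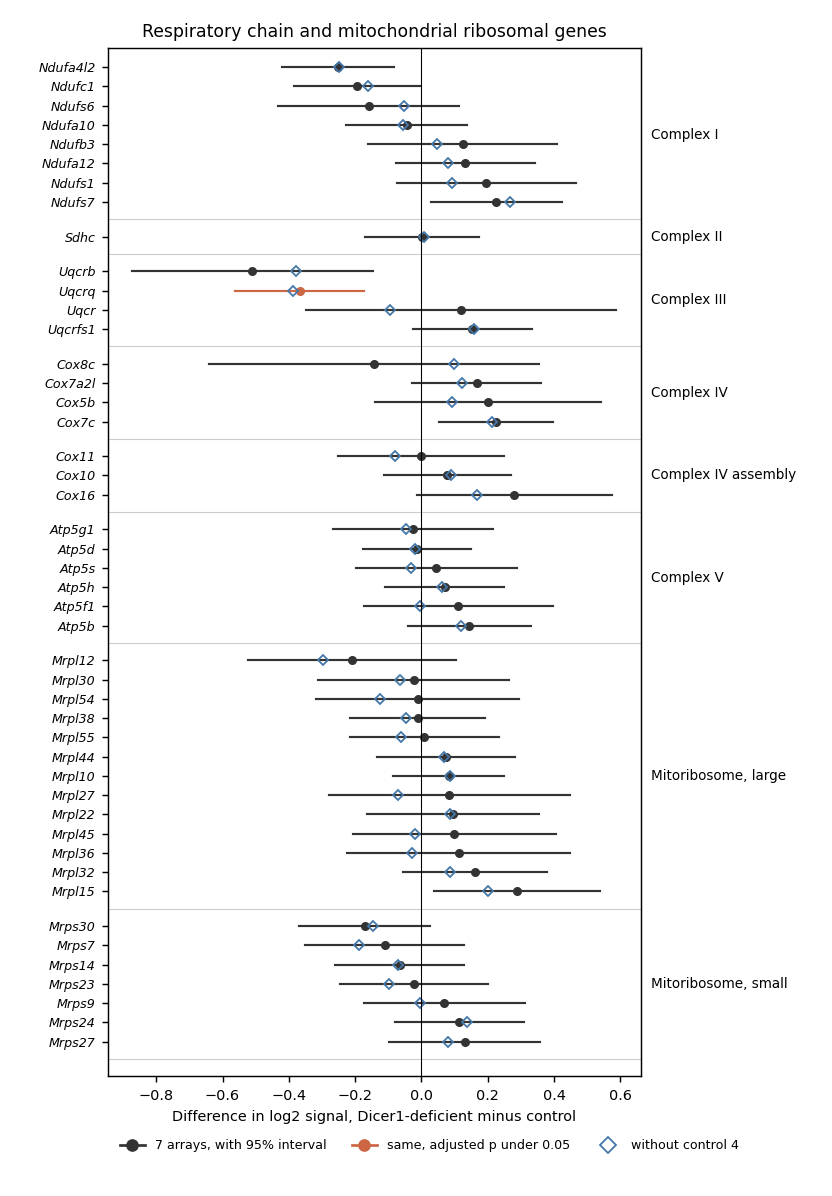
Difference in log2 signal between Dicer1-deficient (n = 3) and control (n = 4) arrays for each of the 46 genes, grouped by complex. Filled points with bars are limma estimates with 95% intervals, open diamonds are the estimates without control 4, and the coloured gene, Uqcrq at -0.37, passed the test. Most intervals cross 0, and many diamonds lie to the left of their point, among them those of most large-subunit ribosomal genes.

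Promoters show a feature of these genes that their names did not select. Nuclear respiratory factor 1 (NRF1), GA-binding protein of the ETS family and YY1 are factors known to bind near the start of many nuclear genes of mitochondrial proteins. RefSeq promoters (GRCm38.p6, 250 bases before to 50 after a gene's start) were matched for 37 of the 46 genes, in 39 promoters, and searched on both strands. Uqcrq was not among the 37. The letters of the NRF1 motif (GCGC, any base, TGCGC) were found in 8 of the 39 (20.5%, against 4.6% of 32851 promoters in the table). The ETS letters CCGGAAG were in 9 (23.1% against 8.86%) and the YY1 letters AAGATGGC in 10 (25.6% against 2.75%). Each promoter of Cox16 held the ETS letters and was counted. Among promoters of protein-coding genes the shares were 6.38% for NRF1, 11.6% for ETS and 3.05% for YY1. At least 1 of the 3 was in 56.4% of the 39, against 14.7% of all promoters and 18.9% of those of protein-coding genes. The general GC-box letters GGGCGG were in 38.5%, against 35.7% of all promoters and 46.2% of those of protein-coding genes. NRF1 letters were in 6 of 17 ribosomal promoters and 2 of 22 respiratory chain promoters. A match is a description of the letters and no evidence of binding, and matches of different motifs were counted separately even where they overlap.

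Promoters of 3 members show these letters in place, from 250 bases before to 35 after the start, 5′ to 3′ on the strand of the gene, with the letters of any of the 4 motifs in capitals. Ndufs7 (complex I, chr10:80249199-80249483, plus strand) has the YY1 letters 24 bases after the start used in the promoter table, which lies downstream of the first base of the RefSeq gene (80249105). Cox10 (complex IV assembly, chr11:64079438-64079722, minus strand) has ETS letters 27 bases before and YY1 letters 21 bases after it. Mrpl32 (ribosome, chr13:14613003-14613287, minus strand) has the NRF1 letters 87 bases before it and the YY1 letters on the opposite strand.
Ndufs7: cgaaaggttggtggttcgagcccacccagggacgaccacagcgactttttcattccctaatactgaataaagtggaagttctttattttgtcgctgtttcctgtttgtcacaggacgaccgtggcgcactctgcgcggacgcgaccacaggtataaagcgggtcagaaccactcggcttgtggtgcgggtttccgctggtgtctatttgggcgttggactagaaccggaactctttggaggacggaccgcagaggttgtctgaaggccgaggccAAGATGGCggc
Cox10: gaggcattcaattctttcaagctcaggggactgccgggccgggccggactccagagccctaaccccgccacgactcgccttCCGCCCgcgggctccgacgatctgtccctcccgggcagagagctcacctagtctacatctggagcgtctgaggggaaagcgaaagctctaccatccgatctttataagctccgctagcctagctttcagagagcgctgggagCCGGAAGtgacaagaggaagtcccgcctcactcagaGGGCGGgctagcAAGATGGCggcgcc
Mrpl32: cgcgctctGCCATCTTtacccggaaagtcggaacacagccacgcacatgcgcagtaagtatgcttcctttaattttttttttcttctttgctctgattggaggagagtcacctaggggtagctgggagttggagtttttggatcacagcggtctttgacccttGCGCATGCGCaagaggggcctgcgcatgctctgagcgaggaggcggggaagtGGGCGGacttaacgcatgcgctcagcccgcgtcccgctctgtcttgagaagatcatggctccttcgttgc

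Complex I, which takes electrons from NADH, was represented by 8 genes, with a median log2 fold change of 0.04, and no member of it passed when all arrays were used. Ndufs7, shown above, encodes a core subunit that holds an iron-sulfur cluster. It read 10.52, 10.72, 10.72 and 10.82 in controls 1 to 4 and 10.91, 10.93 and 10.92 in Dicer1-deficient arrays 1 to 3. Every Dicer1-deficient array lay above every control, and the Dicer1-deficient arrays nearly coincided. The log2 fold change was 0.23 (SE 0.09; 95% interval 0.03 to 0.42; limma adjusted p = 0.213). All 7 of its probe sets had positive fold changes, from 0.15 to 0.28. Without control 4, the brightest control for this gene, it passed at 0.27 (limma adjusted p = 0.0309).

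Ndufa4l2 is grouped here by its name, although it is a paralog of Ndufa4 better known as a hypoxia-inducible gene than as a subunit of complex I. It read 6.46, 6.50, 6.53 and 6.51 in the controls and 6.32, 6.24 and 6.19 in the Dicer1-deficient arrays. The groups did not overlap, and control 4 lay among the other controls. The log2 fold change was -0.25 (SE 0.08; limma adjusted p = 0.0936), with all 4 probe sets negative, and it passed without control 4 (-0.25, adjusted p = 0.0237). Ndufc1, an accessory subunit gene, had a fold change of -0.20 (adjusted p = 0.276) on a single probe set. That probe set lies among those of chromosome 13, while the gene is on chromosome 3.

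The other 5 complex I genes had fold changes from -0.16 to 0.20. Ndufs1, the gene of the largest core subunit, had the most probe sets of any member, 20. It read 7.68, 7.73, 7.74 and 7.31 in the controls and 7.87, 7.87 and 7.69 in the Dicer1-deficient arrays, so that control 4 lay far below the rest. Its log2 fold change was 0.20 with that array and 0.09 without it (limma adjusted p = 0.497 and 0.394). Ndufs6, an accessory subunit gene needed late in assembly, went the other way in control 4, at 8.83 against 8.37 to 8.44 in the other controls and 8.24 to 8.42 after Dicer1 deletion. The remaining subunit genes Ndufa10, Ndufa12 and Ndufb3 had fold changes of -0.04, 0.13 and 0.13.

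Complex II, which oxidises succinate, was represented by Sdhc alone, the gene of a membrane anchor subunit. It read 9.01, 8.99, 9.05 and 9.05 in the controls and 9.03, 9.10 and 8.94 in the Dicer1-deficient arrays. The groups overlapped fully, with a log2 fold change of 0.0004 (SE 0.08; 95% interval -0.17 to 0.17; limma adjusted p = 0.999).

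Complex III, which passes electrons from ubiquinol to cytochrome c, held the member that passed the test, though its 4 genes did not move together. Uqcrq, on chromosome 11, encodes a small ubiquinone-binding subunit. It read 7.53, 7.45, 7.46 and 7.41 in the controls and 7.14, 7.20 and 6.95 in the Dicer1-deficient arrays. All controls, control 4 included, lay above all Dicer1-deficient arrays. The signal went from 7.46 ± 0.05 (SD, n = 4) to 7.10 ± 0.13 (SD, n = 3), which is 77.5% of control (log2 fold change -0.37, SE 0.09, 95% interval -0.56 to -0.17, limma adjusted p = 0.0390).

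All 3 probe sets of Uqcrq had negative fold changes, and the call was near the threshold. The probe sets went from 9.22 to 8.85 (-0.36), from 8.66 to 8.15 (-0.51) and from 4.52 to 4.29 (-0.23), the last a dim one, under the lower quartile of signal (4.63). On the brightest of them alone limma gave an adjusted p of 0.281, and with the retinal marker covariate 0.192, at a fold change of -0.43. Leaving out any 1 array other than control 4 moved the adjusted p of the gene to between 0.0777 and 0.183, with fold changes from -0.42 to -0.30, and without control 4 it was 0.0105.

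Uqcrb, the gene of another ubiquinone-binding subunit, had the largest difference of the 46 genes with all arrays, on a single probe set. Without control 4, Uqcrq exceeded it. It read 8.99, 8.70, 8.65 and 9.31 in the controls and 8.43, 8.56 and 8.22 in the Dicer1-deficient arrays. The groups did not overlap, but control 4 was the highest array. The log2 fold change was -0.51 (SE 0.16; limma adjusted p = 0.116). Leaving out control 4 brought it to -0.38 (adjusted p = 0.0563). A further 4 probe sets carry the symbols of both Uqcrb and the predicted gene Gm5457 and so fell outside the selection. Their fold changes were smaller, at -0.04, -0.07, -0.12 and -0.18 (limma adjusted p over all probe sets from 0.689 to 0.978), at signals of 10.08 to 11.80 in control.

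Uqcrfs1, the gene of the Rieske iron-sulfur protein that carries out the electron transfer, read 6.22, 6.10, 6.09 and 6.16 in the controls and 6.30, 6.37 and 6.22 in the Dicer1-deficient arrays. Its lowest Dicer1-deficient array equalled the highest control within 0.01, and the log2 fold change was 0.15 (SE 0.08; limma adjusted p = 0.385). Uqcr, whose current symbol is Uqcr11, encodes the smallest subunit. It read 8.27, 8.48 and 8.37 in controls 1 to 3, 7.51 in control 4 and 8.33, 8.38 and 8.13 in the Dicer1-deficient arrays. The low control 4 set the direction of its fold change, 0.12 with that array and -0.10 without it (limma adjusted p = 0.892 and 0.497).

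**Figure D2:**
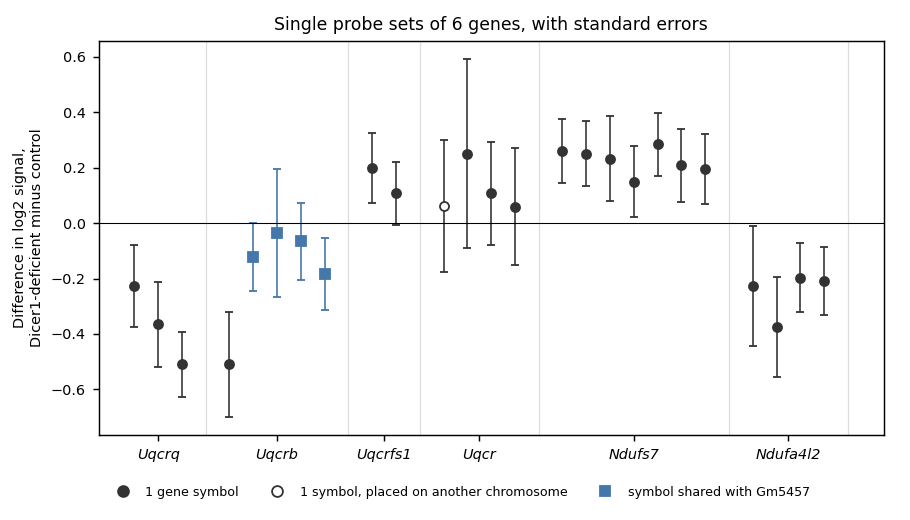
Difference in log2 signal between Dicer1-deficient (n = 3) and control (n = 4) arrays for each probe set of the 4 complex III genes and of Ndufs7 and Ndufa4l2, with standard errors from limma. An open circle marks a probe set placed on another chromosome than its gene. The 3 probe sets of Uqcrq lie between -0.51 and -0.23 and the 7 of Ndufs7 between 0.15 and 0.28, while the single Uqcrb probe set (-0.51) lies below the 4 that share its symbol with Gm5457 (squares, -0.18 to -0.04).

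Complex IV, cytochrome c oxidase, had 4 subunit genes with a median log2 fold change of 0.18, none past the test with all arrays. Cox7c, a small subunit gene, read 10.59, 10.67, 10.66 and 10.59 in the controls and 10.87, 10.90 and 10.79 in the Dicer1-deficient arrays. All Dicer1-deficient arrays lay higher, by 0.23 on the log2 scale (SE 0.08; limma adjusted p = 0.143), and the gene passed without control 4 (0.21, adjusted p = 0.0394). Its only probe set lies among probe sets of chromosome 11, while the gene is on chromosome 13. The 2 probe sets shared between Cox7c and Gm10012 had fold changes of 0.20 and 0.16.

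Cox7a2l, which encodes a factor that joins complexes III and IV into supercomplexes, read 7.03, 7.09, 6.99 and 6.86 in the controls and 7.12, 7.24 and 7.12 in the Dicer1-deficient arrays. The groups were separated narrowly, with a log2 fold change of 0.17 (SE 0.09; limma adjusted p = 0.385). Both of its probe sets lie among those of chromosome 12 (the gene is on chromosome 17), and they differed from each other, at 0.36 and -0.03. Cox5b, a nuclear-encoded subunit gene, had a fold change of 0.20 (adjusted p = 0.626), and its groups overlapped widely, at 9.71 to 10.29 in control and 10.13 to 10.44 in Dicer1-deficient arrays. Its fold change was 0.09 without control 4, and 2 of its 6 probe sets lie among those of chromosome 13, while the gene is on chromosome 1. Cox8c, the testis form of subunit VIII, read 4.32 to 4.50 in 6 arrays, which is dim, and 5.31 in control 4.

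Complex IV assembly was represented by 3 genes, all short of the threshold. Cox16, an assembly factor gene, read 8.52, 8.65, 8.72 and 8.18 in the controls and 8.67, 8.87 and 8.85 in the Dicer1-deficient arrays. Control 3 lay above the lowest Dicer1-deficient array, and the log2 fold change was 0.28 (SE 0.13; limma adjusted p = 0.323), or 0.17 without control 4. Cox10, which makes the heme of the complex and whose promoter is shown above, had a fold change of 0.08 (adjusted p = 0.799). Cox11, which helps to insert copper, was level at 7.11 in both groups.

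Complex V, ATP synthase, had 6 fold changes from -0.02 to 0.14 with every 95% interval inside 0.5 on either side of 0. Atp5b, the gene of the catalytic beta subunit, read 10.62, 10.59, 10.64 and 10.52 in the controls and 10.82, 10.63 and 10.77 in the Dicer1-deficient arrays. The second Dicer1-deficient array lay inside the control range, and the log2 fold change was 0.14 (SE 0.08; limma adjusted p = 0.445), with 9 of 11 probe sets positive. Atp5d, the gene of the delta subunit, read 11.51 to 11.58 in control and 11.51 to 11.56 in Dicer1-deficient arrays, a fold change of -0.01 (95% interval -0.18 to 0.15). The stalk subunit genes Atp5h (0.07) and Atp5f1 (0.11; -0.01 without control 4), the ring subunit gene Atp5g1 (-0.02) and Atp5s (0.05), which encodes a coupling factor, made up the rest. The 1 probe set of Atp5f1 lies among those of chromosome 11, and its gene is on chromosome 3.

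The mitochondrial ribosome was represented by 13 genes named Mrpl and 7 named Mrps, and none passed the test. They are called large-subunit and small-subunit genes here by these names alone. The names were not checked against the place of each protein, that of Mrps30 included. The large-subunit genes had a median log2 fold change of 0.08, with 9 above 0, and of -0.03 without control 4, with 5 above 0. Mrpl15 had the largest positive difference of the 46 genes with all arrays, and was exceeded by Ndufs7 without control 4. It read 7.32, 7.43, 7.27 and 6.99 in the controls and 7.54, 7.63 and 7.44 in the Dicer1-deficient arrays. The lowest Dicer1-deficient array lay just above the highest control, and the fold change was 0.29 (SE 0.11; limma adjusted p = 0.210), all 6 probe sets being positive, or 0.20 without control 4 (adjusted p = 0.0923).

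Mrpl32, whose promoter is shown above, encodes a protein whose cleavage in the mitochondrion precedes its entry into the ribosome. It read 7.06, 7.05, 7.04 and 6.75 in the controls and 7.11, 7.17 and 7.13 in the Dicer1-deficient arrays. Controls 1 to 3 differed from the Dicer1-deficient arrays by 0.09, and control 4 brought the difference to 0.16 (limma adjusted p = 0.292 and 0.479). Mrpl12, whose product also binds the mitochondrial RNA polymerase, had the most negative value of the ribosomal genes. It read 7.20, 7.18, 6.85 and 6.73 in the controls and 6.87, 6.90 and 6.58 in the Dicer1-deficient arrays. The groups overlapped, and the fold change was -0.21 (SE 0.14; limma adjusted p = 0.560), with all 4 probe sets negative. The other 10 large-subunit genes had fold changes from -0.02 to 0.11.

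Small-subunit genes had fold changes from -0.17 to 0.13, with 3 of the 7 above 0. Mrps30 had a difference of -0.17 (SE 0.09; limma adjusted p = 0.382) on a single probe set. Its signal, 4.59 ± 0.08 (SD, n = 4) against 4.42 ± 0.11 (SD, n = 3), is dim, close to the lower quartile of signal (4.63), and may not exceed background. Mrps24 (0.11) and Mrps27 (0.13) overlapped between the groups. So did Mrps7 (-0.11), Mrps14 (-0.07), Mrps9 (0.07) and Mrps23 (-0.02).

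For 8 of the 46 genes (17.4%) every array of one group lay beyond every array of the other, against 18.9% over all genes. They were Uqcrq, Uqcrb and Ndufa4l2, which were lower in Dicer1-deficient RPE, and Ndufs7, Cox7c, Cox7a2l, Mrpl15 and Mrpl32, which were higher. All probe sets of Cox7c and Cox7a2l lie among those of another chromosome than their gene's. Without control 4 it was 10 of 46 (21.7%), against 36.5% of all genes.

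**Figure D3:**
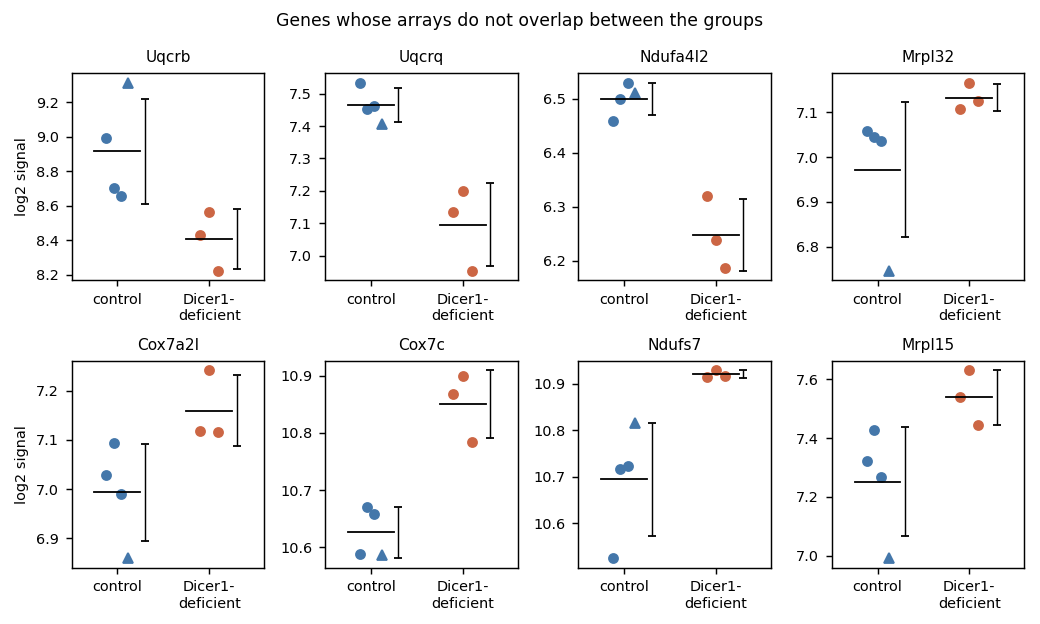
Log2 signal of the 8 genes whose arrays do not overlap, in 4 control (blue, control 4 as a triangle) and 3 Dicer1-deficient (orange) arrays, with group means as lines and SDs as bars. Uqcrq went from 7.46 to 7.10 with control 4 close to the other controls, while Mrpl32 and Mrpl15 have control 4 as their lowest array.

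Averaged over its genes, the complexes differed little between the groups. The means are given without a test, since the genes were chosen together. Complex III went from 7.76, 7.68, 7.64 and 7.60 in the controls to 7.55, 7.63 and 7.38 in the Dicer1-deficient arrays (-0.15), and the second Dicer1-deficient array lay above control 4. Without the third Dicer1-deficient array this difference was -0.08. Complex IV subunits stood at 8.06 ± 0.07 (SD, n = 4) and 8.17 ± 0.08 (SD, n = 3), a difference of 0.11, and the highest control and the lowest Dicer1-deficient array both stood at 8.12. This difference was 0.015 without the probe sets that lie among those of another chromosome, which leaves Cox5b and Cox8c. Complex I differed by 0.0036, with SDs of 0.03 and 0.06, and complex V by 0.06. The large subunit of the ribosome read 6.78, 6.73, 6.65 and 6.43 in the controls and 6.72, 6.73 and 6.68 in the Dicer1-deficient arrays. Its difference of 0.06 with all arrays was -0.01 against controls 1 to 3.

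**Figure D4:**
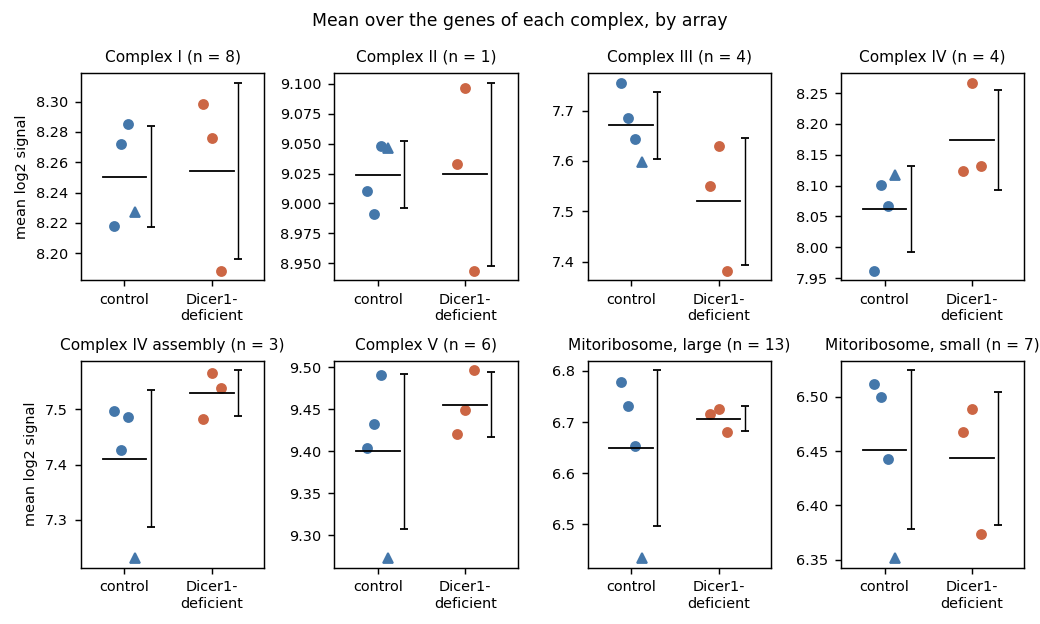
Mean log2 signal over the genes of each complex in the 4 control (blue, control 4 as a triangle) and 3 Dicer1-deficient (orange) arrays, with group means as lines and SDs as bars, each panel on its own axis. Control 4 is the lowest array for the ribosomal large (6.43) and small (6.35) subunits, complex V and complex IV assembly. Complex IV subunits are the 1 panel in which the groups do not overlap.

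Control 4 read low for these genes more often than for others, and so did Dicer1-deficient array 3. Control 4 was the lowest of the 7 arrays for 24 of the 46 genes (52.2%), against 35.8% of all genes. Dicer1-deficient array 3 was the lowest for 19.6% of the 46, against 8.77% of all genes. Dicer1-deficient array 2 was the lowest for 0% of the 46, against 10.6% of all genes. For no array other than control 4 was the share of the 46 above 19.6%. The median SD over the controls was 0.15 with control 4 and 0.08 without it, and 0.09 over the Dicer1-deficient arrays.

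**Figure D5:**
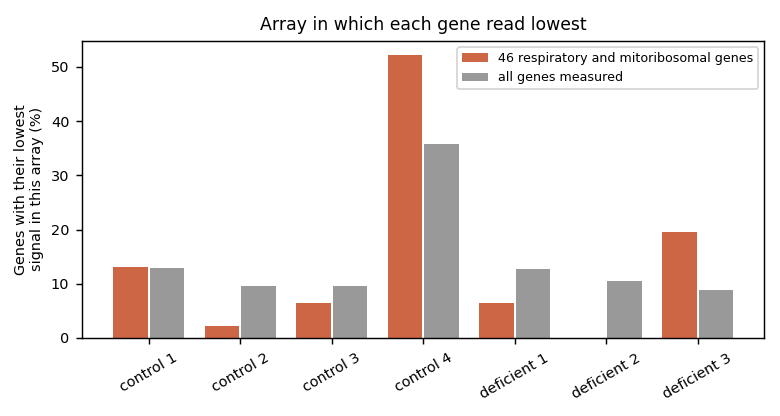
Share of genes (percent) whose lowest signal of the 7 arrays lies in a given array, for the 46 respiratory and ribosomal genes and for all 5017 genes. The bars for control 4 reach 52.2% and 35.8%.

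In the other mitochondrial gene lists examined, 1 gene passed the test with all arrays. Pdk2, a kinase that inhibits pyruvate dehydrogenase and so limits the entry of pyruvate into the citric acid cycle, rose from 9.27 ± 0.08 (SD, n = 4) to 9.66 ± 0.08 (SD, n = 3), a log2 fold change of 0.40 (SE 0.08; limma adjusted p = 0.0254). It was the 1 of 8 measured genes of that cycle and of pyruvate entry to pass (12.5%, against 5.86% of all genes), with Mpc1, a pyruvate carrier gene, at -0.20 and Mpc2, its partner, at 0.15. Of 5 regulators of mitochondrial biogenesis none passed with all arrays. The deacetylase gene Sirt1 (0.48, adjusted p = 0.0521) and the nuclear receptor gene Esrrg (0.41, adjusted p = 0.0557) passed without control 4, at 0.37 and 0.44 (adjusted p = 0.0049 and 0.0236), when 17% of all genes did. The signal of Esrrg was dim, with means of 4.72 and 5.13, and Esrrb had a fold change of -0.08.

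Genes that act in copying or transcribing mitochondrial DNA, or in processing or translating RNA in the mitochondrion, had a median log2 fold change of 0.08. None of these 23 passed the test. They were led by the RNA polymerase gene Polrmt (0.18), Ptrh2 (0.24), a peptidyl-tRNA hydrolase gene, and the DNA-binding protein gene Ssbp1 (0.22). The limma adjusted p of these leading genes ran from 0.233 to 0.303. Of the 23, 19 lay above 0, but without control 4 the median was 0.0032 and 12 lay above 0. The 12 assembly factors outside the name rule had a median of -0.0002 and none past the test. Atpaf2, a complex V assembly factor gene, led them at -0.28 (adjusted p = 0.392), and passed without control 4 (-0.40, adjusted p = 0.0309), with the translation activator gene Taco1 at 0.14 and the complex II factor gene Sdhaf4 at 0.16. The 13 import and carrier genes had a median of 0.02 and none past the test, with Vdac1, the gene of the outer membrane channel, at 0.21, the chaperone gene Hspd1 at 0.41 (0.18 without control 4) and the import motor gene Pam16 at 0.19. Without control 4 the median of these 13 was -0.06, with 8 below 0, and Timm22, a gene of the inner membrane translocase, passed at -0.29 (adjusted p = 0.0193; -0.11 with all arrays). Proteins of the cytosolic ribosome, measured for 21 genes, had a median of 0.02 and none past the test, with Rpl23 at 0.24, Rpl12 at -0.34 and Rps12 at 0.33. Without control 4, Rpl23 passed at 0.22 and Rpl12 at -0.44 (limma adjusted p = 0.0353 and 0.0071). In that fit 9.52% of the cytosolic ribosomal, 7.69% of the import and 8.33% of the assembly factor genes passed, against 17% of all genes.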

How the data were processed

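RNA of dissected RPE (4 control and 3 Dicer1-deficient arrays) was measured on Affymetrix arrays. The authors deposited 1 table of log2 signals, and the submitters' processing notes name RMA and Partek 6.6 with no role or order; the values (2.71 to 13.5) fit a log2 scale. Build, probe alignment and filters: not given in the sources used here. The table stops at 65535 rows, and 53644 probe sets had 1 gene symbol, 877 several and 11014 are unnamed here. Symbols were updated with the RefSeq table of GRCm38.p6, and 24 probe sets that share a symbol of the named kind with another gene were left out of the 46 genes. Since probe set numbers follow the genome (99.5% of neighbouring named probe sets share a chromosome), each member probe set was placed by the 40 on either side. Of the 230, 8 lay among those of another chromosome than their gene's. These were every probe set of Atp5f1, Cox7a2l, Cox7c and Ndufc1, 2 of Cox5b and 1 of Uqcr. Whether such probe sets read the named gene was not tested.

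The signal of a gene is the mean of its probe sets. Groups came from the labels, replicate numbers are names only, and the labels give no batch that differs. All 5017 genes were compared with limma 3.58.1 in R 4.3.3 (lmFit, eBayes, 4.38 prior and 5 residual degrees of freedom, two-sided, Benjamini-Hochberg, 0.05), with fold changes as Dicer1-deficient minus control. Probe set tests were adjusted over all probe sets. No detection calls were used, and the number of arrays limits the precision. The members and lists were chosen with earlier results of these data known. Genes named are members past the test, up to 3 per complex or list with the smallest p, all Sdh and Uqcr genes, and some described after their values were seen. Fitting code was tested on simulated data. Python 3.11.15, pandas 2.3.3 and matplotlib 3.10.9 were used for the rest.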

Additional observations from a re-analysis of the deposited data

Results flagged for a closer look

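Within the 4 controls, 5 of 54 sets of values (46 genes and 8 complex means) had 1 array far from the others, where the gap to the nearest array took up more of the range than Dixon's 95% critical value. Chance alone gives about 1 in 20 such sets, and the genes share the arrays. In 4 of them the far array was control 4. Cox8c read 5.31 there and 4.32 to 4.40 in the other controls (0.917 of the range). Ndufs6 read 8.83 against 8.37 to 8.44 (0.853). Mrpl32 read 6.75 against 7.04 to 7.06 (0.933), and Ndufs1 read 7.31 against 7.68 to 7.74 (0.852). Control 4 was thus high for the first pair and low for the second. Mrpl30, a gene of the large ribosomal subunit, read 8.28 in control 1 and 7.80 to 7.81 in the other controls (0.973).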

How the results depend on the processing

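The count of members past the test was 1 of 46. It was 0 at the brightest probe set, with the retinal marker covariate and with each probe set tested (added after the data were seen; 14 of 230 had an unadjusted p under 0.05). It was 5 with array weights, 2 at a threshold of 0.1 and 0 to 4 with 1 array left out, the 4 being without control 4. The count over all 294 genes past the test was 117 at the brightest probe set, 176 on the median of probe sets, 981 with array weights, 74 with the covariate, 449 at 0.1, 570 of 53644 probe sets, and 121 to 853 with 1 array left out. Quantile normalization again and median centring gave 426 and 367, with 207 and 165 higher. The Uqcrq call held under 9 of its 17 alternatives. The mean difference of complex IV subunits, 0.11, was 0.20 over bright probe sets or genes above the lower quartile, which leave out Cox8c, and 0.015 without misplaced probe sets. Signs turned for values near 0: the median of the 46 genes (0.07) fell to -0.012 at the lowest, and the means of complex I, complex II, the large and the small ribosomal subunit lay on both sides of 0 under their alternatives. Among genes, with 1 array left out, Cox11 ran from -0.081 to 0.064, Sdhc from -0.036 to 0.041, Uqcr from -0.095 to 0.23 and Atp5f1 from -0.0053 to 0.18. At the brightest probe set Cox10 was -0.11, Mrps27 -0.015 and Sdhc -0.0035, and with the covariate Cox11 was 0.0088 and Sdhc -0.053. With array weights Uqcr was -0.12 and Sdhc -0.0033, and Sdhc was -0.0048 and -0.029 after quantile normalization and centring. The cause of these turns was not tested. No paired analysis was possible because the labels carry no shared replicate numbers. Dim genes such as Cox8c and Mrps30 were not shown to be above background.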

Other observations

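Genes whose current symbol, but not that of the platform annotation, starts in one of the named ways were measured too. None passed limma with all arrays. For Uqcr10, a complex III subunit gene, the log2 fold change came to 0.06 (adjusted p = 0.873), for Cox20, an assembly factor gene of complex IV, to 0.15 (0.487) and for Atp5mpl, a small subunit gene of complex V, to -0.07 (0.826). Of the ribosomal genes, Mrpl42 had -0.04 (0.970) and Mrpl58, which encodes a peptidyl-tRNA hydrolase built into the large subunit, -0.17 (0.488). Without control 4, Mrpl58 passed at -0.25 (adjusted p = 0.0210), when 17% of all genes did.

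Probe sets left out for carrying several symbols showed no large differences either. The 3 of Cox6c and Gm6265, the only probe sets with the symbol of that complex IV subunit, had fold changes of 0.08, 0.25 and 0.18, at control signals of 10.82 to 11.91. The 4 of Atp5g1 and Gm10039 had -0.07 to -0.28, and none of the 24 passed limma over all probe sets.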
